A study of Mus musculus with 10 samples.

Results

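Accessible chromatin was followed at 9 genes of the intestinal crypt: Lgr5, Olfm4, Ascl2, Sox9, Axin2, Myc, Ephb2, Lrig1 and Cd44. They were chosen by gene ID as known stem cell and Wnt target genes, by a rule that uses no measured value, and every peak assigned to those IDs was taken, which gave 114 of the 246479 peaks and 9 of the 44580 gene IDs of the series. ATAC-seq was used, in which a transposase inserts adapters into DNA that is free of nucleosomes, so that counts over a peak rise with its accessibility. The cells were sorted intestinal epithelial cells (IECs) of young adult mice, labelled as duodenum and, by the methods, taken from duodenum and upper jejunum, from 5 wild type (WT) mice, WT1 to WT5, and 5 mice with a whole-body deletion of the zinc transporter gene Zip14 (Slc39a14), here KO6 to KO10. Both genotypes came from 1 strain backcrossed to C57BL/6, and female mice were the rule unless stated otherwise. No treatment was given in the labels. Since the deletion was not limited to the epithelium, a difference in IECs and a response to other Zip14-deficient tissues cannot be told apart here.

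The small intestinal epithelium is renewed from stem cells at the base of the crypts. Wnt ligands from Paneth cells and from the surrounding mesenchyme keep beta-catenin from being degraded, and beta-catenin then acts with TCF/LEF factors on target genes that hold cells in the stem or dividing state. R-spondins strengthen the signal through Lgr receptors, and cells that leave the crypt base lose the signal and differentiate as they move toward the villus. Such a preparation holds villus and crypt cells, and in bulk samples fewer crypt cells and less accessible chromatin per crypt cell cannot be told apart.

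The libraries of WT mice held 5202949 to 15775481 counts and those of KO mice 4731176 to 6094983. The KO values thus rest on fewer reads than those of the WT mice other than WT2, whose 5202949 counts were below those of KO6 to KO9. The strongest peak of the series took from 5.66% to 14.4% of a library. The 9 genes together held between 0.0467% and 0.0541% of the counts in WT mice and between 0.0402% and 0.0454% in KO mice, as shares of all counts and with no test. After TMM scaling WT1 lay among the KO mice, as given below. Gene symbols are not in the count table, and no ID of it could be paired with the symbol Slc39a14. The targeted gene was therefore not analysed here. Markers of epithelial, lymphoid, myeloid, endothelial, stromal and erythroid cells were not analysed here for want of symbols, so their part in the results was not tested.

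The peaks carry no coordinates, and their place is known only by gene and by a running number inferred from the order of the entries. For 253 genes with a symbol and a RefSeq position this number gave 21 runs for 21 chromosomes, with 1 of 232 neighboring pairs out of order, while the order within a gene was not checked. The genes themselves lie at the following RefSeq positions on GRCm38.p6, the build of the mm10 genome that the submitters name. Lgr5 (ENSMUSG00000020140) spans chr10:115450314-115587780, Olfm4 (ENSMUSG00000022026) chr14:80000302-80023141, Ascl2 (ENSMUSG00000009248) chr7:142966822-142969264, Sox9 (ENSMUSG00000000567) chr11:112782210-112787757 and Axin2 (ENSMUSG00000000142) chr11:108917828-108950783. Myc (ENSMUSG00000022346) spans chr15:61985341-61990361, Ephb2 (ENSMUSG00000028664) chr4:136647536-136836326, Lrig1 (ENSMUSG00000030029) chr6:94604529-94700298 and Cd44 (ENSMUSG00000005087) chr2:102811141-102901669. Axin2 and Sox9 share chromosome 11.

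The RefSeq promoter table held a start for 6 of the 9 genes, namely Olfm4, Ascl2, Axin2, Ephb2, Lrig1 and Cd44. In the 250 bases upstream of that start, CpG dinucleotides numbered 26 in Lrig1, 24 in Axin2, 20 in Ephb2 and 19 in Ascl2, but 5 in Cd44 and 4 in Olfm4. The median over all promoters of the table was 6, and 90.4% of them had fewer than Lrig1 whereas 37.8% had fewer than Olfm4. These windows lie wholly inside the RefSeq gene for Axin2 and Ephb2, whose table start is not the outermost one, and for Lrig1 97 of the 250 bases lie outside it and hold 9 of the 26 CpGs. The sequences shown allow a CpG-rich and a CpG-poor start to be compared, with every CpG in capitals and reading 5′ to 3′ on the strand of the gene. For Lrig1, 1 of the 3 genes of lowest p below, the 97 bases outside the RefSeq gene are given (chr6:94700299-94700395, minus strand), and for Ascl2 (chr7:142969265-142969514, minus strand) and Olfm4 (chr14:80000052-80000301, plus strand) all 250 bases.
Lrig1: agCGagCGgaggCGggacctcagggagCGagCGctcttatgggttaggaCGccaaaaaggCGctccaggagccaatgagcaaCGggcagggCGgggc
Ascl2: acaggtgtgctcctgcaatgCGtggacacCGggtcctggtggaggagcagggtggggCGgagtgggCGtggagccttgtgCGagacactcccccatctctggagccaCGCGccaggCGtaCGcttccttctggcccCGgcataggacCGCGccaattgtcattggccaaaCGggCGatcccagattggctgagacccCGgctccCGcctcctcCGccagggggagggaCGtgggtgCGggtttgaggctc
Olfm4: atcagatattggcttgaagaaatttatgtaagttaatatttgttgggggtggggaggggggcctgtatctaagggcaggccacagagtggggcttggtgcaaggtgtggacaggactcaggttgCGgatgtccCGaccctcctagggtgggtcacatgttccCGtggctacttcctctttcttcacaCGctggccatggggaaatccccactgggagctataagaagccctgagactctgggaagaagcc

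The window from 250 bases before to 50 after the start was searched on both strands for the TCF/LEF letters CTTTGAT and CTTTGAA and for the E-box CAGCTG. None of the 6 windows held any of them, while 3.73%, 5.14% and 16.3% of the 32851 promoters of the table did. This says only that these letters are not in these windows.

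The question put to these genes was whether loss of Zip14 goes with a change in accessible chromatin at the crypt stem cell and Wnt program. For each gene the counts of all its peaks were summed in each mouse and given as CPM, the count scaled to the library's total over the gene sums tested, after adjustment by TMM factors, which set libraries to a common level. The genotypes were compared with edgeR's quasi-likelihood test over all 36715 gene sums that passed the filter on low counts, with Benjamini-Hochberg adjustment over all of them. Peak lengths are unknown, so a level is compared between mice, and the mean level of a gene is used only to group genes of like counts. The labels number the mice separately, and p-values measure the spread between these mice.

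None of the 9 genes passed an adjusted p of 0.05, a threshold that 3.91% of all gene sums passed. That number of gene sums, 1434, ranged from 0 to 3311 when 1 mouse was left out. Axin2, Myc and Lrig1 were each lower in KO mice by 0.23 to 0.28 on the log2 scale and had unadjusted p-values between 0.0053 and 0.0066. The background is wide, since 11.8% of all gene sums had an unadjusted p under 0.05 and were lower in KO mice, and 15.7% had one and were higher, as none of the 9 did. When gene sums were put into 10 level groups of equal size by mean level, the 3 genes fell into the 2 highest groups, where 27.3% had an unadjusted p under 0.05 and were lower. The stem cell genes Lgr5, Olfm4 and Ascl2 and the other targets Sox9, Ephb2 and Cd44 were between -0.14 and 0.06, with 95% intervals that all included 0. In all, 7 of the 9 fitted fold changes were lower in KO mice, beside 50.5% of all gene sums and 84.8% of those in the 2 highest level groups. The median of the 9 was -0.09, against -0.0037 over all gene sums.

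**Figure D1:**
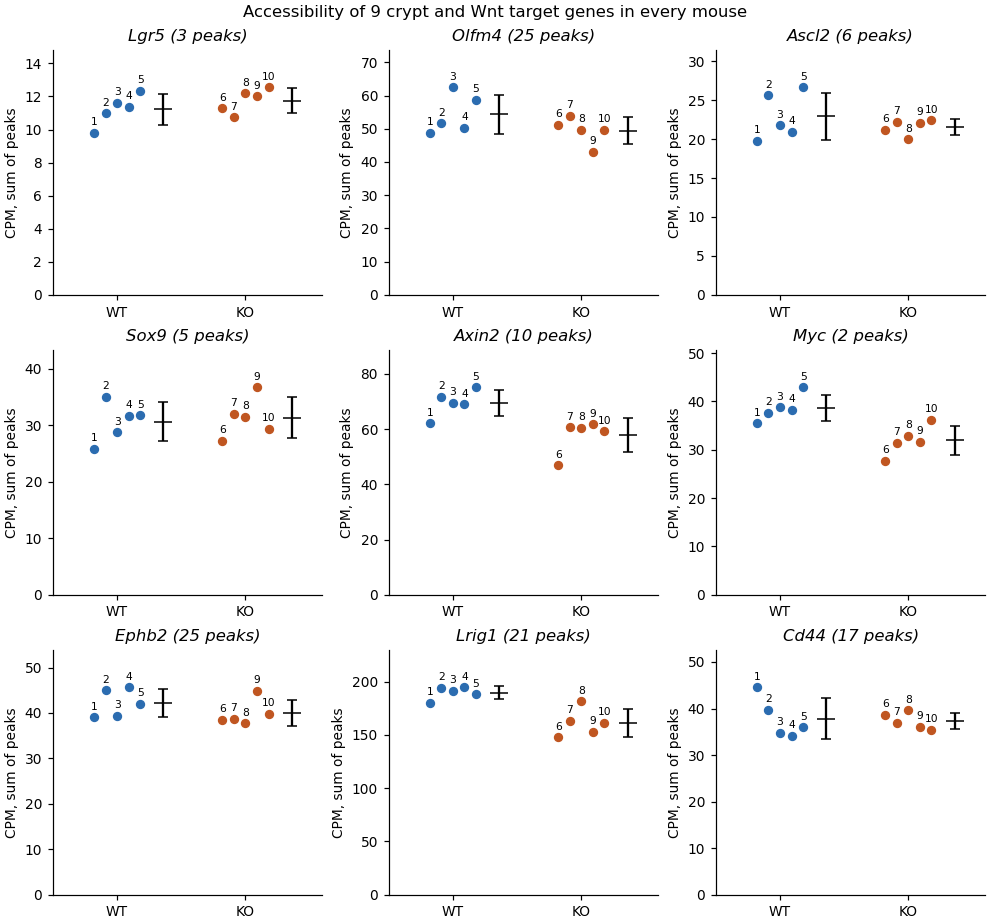
Summed counts of all peaks of each gene, in CPM on an axis from 0, for every WT mouse (blue, 1 to 5) and KO mouse (orange, 6 to 10), with the mean and SD of 5 mice as a black bar. The WT and KO points are apart for Axin2, touch or cross by 1 mouse for Myc and Lrig1, and lie in the same range for Lgr5, Sox9 and Cd44.

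Lgr5 is the R-spondin receptor that defines the columnar stem cells of the crypt base. It had the lowest counts of the 9, between 54 and 205 in a mouse, from 3 peaks. WT1 to WT5 had 9.8, 10.99, 11.6, 11.4 and 12.3 CPM, and KO6 to KO10 had 11.3, 10.7, 12.2, 12.003 and 12.6 CPM. The genotypes overlapped, with WT1 lowest and KO10 highest of all 10 mice. The log2 fold change, here and below KO minus WT, was 0.06 (SE 0.12, 95% interval -0.19 to 0.31, edgeR adjusted p = 0.779). One peak, the third, held 90.2% ± 3.4 of the Lgr5 counts in WT mice and 93.5% ± 3.6 in KO mice (SD, n = 5), so the sum is close to a measure of that peak. Alone, in the fit of single peaks, peak 3 was at 0.19 (95% interval -0.08 to 0.45), and the sum with the scaling factors of that fit was at 0.14. Peak 3 was at 0.093 with total counts and 0.020 with no filter.

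Olfm4 encodes a secreted glycoprotein that marks the cells of the crypt base in the mouse small intestine. Its 25 peaks gave 48.7, 51.7, 62.5, 50.3 and 58.7 CPM in WT1 to WT5 and 51.1, 53.8, 49.8, 43.0 and 49.6 CPM in KO6 to KO10. WT3 and WT5 stood above every KO mouse and KO9 below every WT mouse, while the other mice overlapped. KO differed from WT by -0.14 on the log2 scale (SE 0.088, 95% interval -0.33 to 0.04, edgeR adjusted p = 0.296). With 1 mouse left out this value ranged from -0.18 without KO7 to -0.081 without WT3, and with loess offsets it was -0.026. Counts were spread over the gene, and the strongest peak, number 17, held 24.7% ± 2.1 in WT and 23.8% ± 3.8 in KO mice. Of 6 Olfm4 peaks strong enough to test, 5 were lower in KO mice, none at an unadjusted p under 0.05.

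Ascl2 is a basic helix-loop-helix factor that controls the stem cell state of the crypt. WT mice had 19.7, 25.6, 21.8, 20.9 and 26.7 CPM and KO mice 21.2, 22.2, 19.97, 22.1 and 22.4 CPM, in the order of their numbers. The KO mice lay inside the WT range, and WT2 and WT5 alone stood above them. Ascl2 differed by -0.09 (log2 fold change, SE 0.105, 95% interval -0.31 to 0.13, edgeR adjusted p = 0.579). With 1 mouse left out this value ranged from -0.13 without WT1 to -0.018 without WT5. The strongest of 6 peaks held 81.5% ± 2.1 of the counts in WT and 79.9% ± 4.3 in KO mice.

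Lrig1 encodes a transmembrane inhibitor of ErbB receptors and marks crypt stem cells. Its 21 peaks gave 180.2, 194, 192, 195 and 188 CPM in WT1 to WT5, and 148, 163, 181, 153 and 161 CPM in KO6 to KO10. All KO mice but KO8 were below all WT mice, and KO8 exceeded WT1 alone. The mean was 189.8 ± 6.0 CPM in WT and 161 ± 12.9 CPM in KO mice (SD, n = 5). Lrig1 was thus at -0.23 in log2 fold change (SE 0.077, 95% interval -0.39 to -0.07, edgeR adjusted p = 0.0738). DESeq2 gave nearly the same fold change, -0.24, with an adjusted p of 0.0264, so that the call depends on the tool. By DESeq2, 1.98% of gene sums were lower in KO mice at that threshold. In an exact permutation of the genotype labels Lrig1 had p = 0.0159 and 0.153 after adjustment over all gene sums, a value that could not pass, since the smallest permutation p adjusts to 0.132 here.

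Sox9, an HMG-box factor of crypt progenitors and Paneth cells, had 25.8, 35.0, 28.8, 31.6 and 31.8 CPM in WT1 to WT5. KO6 to KO10 had 27.3, 32.0, 31.5, 36.7 and 29.3 CPM. The genotypes overlapped throughout, with WT1 lowest and KO9 highest. Sox9 had a log2 fold change of 0.04 (SE 0.103, 95% interval -0.18 to 0.26, edgeR adjusted p = 0.823), and it was below 0 without WT1 (-0.0061) or without KO9 (-0.017). The strongest of 5 peaks held 59.2% ± 1.5 of the counts in WT and 55.3% ± 5.3 in KO mice.

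Axin2 is a scaffold of the complex that degrades beta-catenin and, as a direct Wnt target, a standard readout of the pathway through negative feedback. Its 10 peaks gave 62.2, 71.6, 69.5, 69.1 and 75.2 CPM in WT1 to WT5 and 46.9, 60.6, 60.6, 61.8 and 59.2 CPM in KO6 to KO10. Every KO mouse was below every WT mouse, and the closest pair was KO9 and WT1. Axin2 was the only one of the 9 genes without overlap, a separation in this direction that 2.84% of all gene sums and 7.01% of those in the 2 highest level groups showed. The mean was 69.5 ± 4.8 CPM in WT and 57.8 ± 6.2 CPM in KO mice (SD, n = 5). The log2 fold change was -0.27 (SE 0.085, 95% interval -0.45 to -0.09, edgeR adjusted p = 0.0683). The exact permutation test gave p = 0.00794, the smallest that 5 against 5 mice allow in a two-sided test, and it adjusts to 0.132, so no gene sum could pass. KO6 was far below the other KO mice, and without KO6 the log2 fold change of Axin2 was -0.20 with an adjusted p of 0.149.

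Myc encodes a transcription factor of cell growth and is a Wnt target in the crypt. The file assigned only 2 peaks to it. WT1 to WT5 had 35.5, 37.6, 38.8, 38.3 and 43.0 CPM and KO6 to KO10 had 27.8, 31.4, 32.8, 31.7 and 36.2 CPM. Of the KO mice, KO10 alone exceeded a WT mouse, WT1. The mean was 38.6 ± 2.7 CPM in WT and 32.0 ± 3.0 CPM in KO mice (SD, n = 5). Myc had a log2 fold change of -0.28 (SE 0.090, 95% interval -0.47 to -0.09, edgeR adjusted p = 0.071). The exact permutation test gave p = 0.0159 and an adjusted p of 0.153.

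Ephb2 is a receptor tyrosine kinase that sorts cells along the crypt axis, and Cd44 is a hyaluronan receptor of crypt cells. Ephb2 had 39.1, 45.0, 39.4, 45.7 and 42.1 CPM in WT mice and 38.5, 38.8, 37.7, 44.9 and 39.8 CPM in KO mice, from 25 peaks. KO9 stood with the higher WT mice and KO10 with the lower ones, while KO6, KO7 and KO8 were below every WT mouse. Ephb2 had a log2 fold change of -0.08 (SE 0.083, 95% interval -0.25 to 0.09, edgeR adjusted p = 0.546). Cd44 had 44.6, 39.7, 34.8, 34.2 and 35.98 CPM in WT mice and 38.7, 36.9, 39.6, 36.01 and 35.4 CPM in KO mice, from 17 peaks. The KO mice lay within the WT range, which WT1 widened upward. Cd44 had a log2 fold change of -0.01 (SE 0.090, 95% interval -0.20 to 0.17, edgeR adjusted p = 0.927).

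The fitted fold changes of the whole series followed the mean level of a gene. The median log2 fold change was 0.34 in level group 1, that of the weakest gene sums, 0.07 in group 5 and -0.12 in groups 9 and 10. Olfm4, Axin2, Myc, Ephb2, Lrig1 and Cd44 lie in those 2 groups, and Lgr5 lies in group 5. Against the median of its own group, Axin2 was at -0.15, Myc at -0.16 and Lrig1 at -0.11, whereas Sox9 was at 0.15, Cd44 at 0.11 and Ephb2 at 0.04. In all, 6 of the 9 were below the median of their group, but Lgr5 (-0.016), Olfm4 (-0.021) and Ascl2 (-0.010) were close to it. By definition a median has as many genes below it as above.

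Other scalings bear on this. With total counts in place of TMM, Axin2 was at -0.27, Myc at -0.28 and Lrig1 at -0.24, with edgeR adjusted p-values between 0.093 and 0.107. With loess offsets, which remove a trend of fold change with level, Axin2 was at -0.15 (edgeR adjusted p = 0.257), Myc at -0.17 (edgeR adjusted p = 0.256) and Lrig1 at -0.14 (edgeR adjusted p = 0.242). The direction of these 3 genes was kept, and the unadjusted edgeR p was 0.0442 in Lrig1, 0.0504 in Myc and 0.0509 in Axin2. In that fit 9.42% of gene sums had an unadjusted p under 0.05 and were lower. With the scaling factors of the single-peak fit, which moved the median of all gene sums up by 0.0853, Axin2 was at -0.18, Myc at -0.19 and Lrig1 at -0.15, with edgeR adjusted p-values between 0.141 and 0.162. All 3 had an unadjusted p under 0.05 there, as 4.17% of gene sums did that were lower, and 37.5% of gene sums had a lower fitted value. Ephb2 and Cd44 were above 0 with loess offsets and with the factors of single peaks, as were Sox9 and Lgr5. The deeper libraries of the WT mice other than WT2 are part of the same comparison. With every library thinned to the lowest total Axin2 was at -0.26, Myc at -0.28 and Lrig1 at -0.26.

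**Figure D2:**
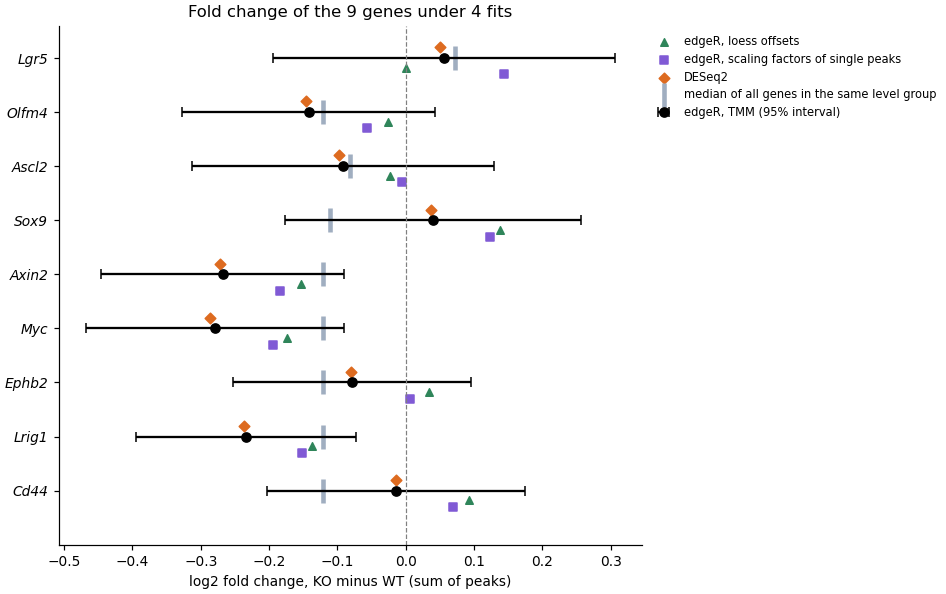
Log2 fold change (KO minus WT) of the summed counts of each gene, with black points and bars for the edgeR value with TMM and its 95% interval, colored marks for loess offsets, for the scaling factors of single peaks and for DESeq2, and a grey tick for the median of all genes of like mean level. Axin2, Myc and Lrig1 are left of 0 in every fit, while Ephb2 and Cd44 move across 0 with the scaling.

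Mice of 1 genotype differed from each other over several genes at once. WT1 was the lowest WT mouse at 8 of the 9 genes and the highest at Cd44, and WT5 was the highest at 4. KO6 was the lowest KO mouse at 4 genes. Averaged over the 9 genes, each centred on its mean over the 10 mice, log2 CPM was -0.06, 0.11, 0.05, 0.04 and 0.14 in WT1 to WT5 and -0.15, -0.04, -0.02, -0.03 and -0.03 in KO6 to KO10. WT1 lay below all KO mice but KO6 on this average, and the other 4 WT mice lay above every KO mouse. This average is a description with no test, and it stands beside the median of -0.12 over all gene sums of the 2 highest level groups, where 6 of the 9 genes lie.

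The peaks of each gene were also tested singly, since a sum can hide peaks that move in opposite directions. Of the 114 peaks of the 9 genes, 51 were strong enough to be tested among 81022 peaks of the series, and these held 90.7% of the counts of the 9 genes. The 63 others had at most 42 counts in any mouse. Peaks are numbered from 1 within a gene by running number, and their CPM is scaled to the total of the tested peaks with the TMM factors of that fit, so it does not add up to the CPM of the sums. No peak of the 9 genes passed an edgeR adjusted p of 0.05, nor did any of the 81022 peaks (0%), although 12978 had an unadjusted p under 0.05 and DESeq2 called 562. Of the 51 peaks, 40 were lower and 11 higher in KO mice, beside 50.4% lower over all tested peaks. That share depends on level, from 26.2% lower in group 1 to 71.4% in group 9 when the tested peaks are put into 10 groups by mean level. Peaks of 1 gene come from the same mice and are not independent, so this count has no test. At an unadjusted p under 0.05, 2 were lower and 1 higher, against 5.65% and 10.4% of all tested peaks.

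**Figure D3:**
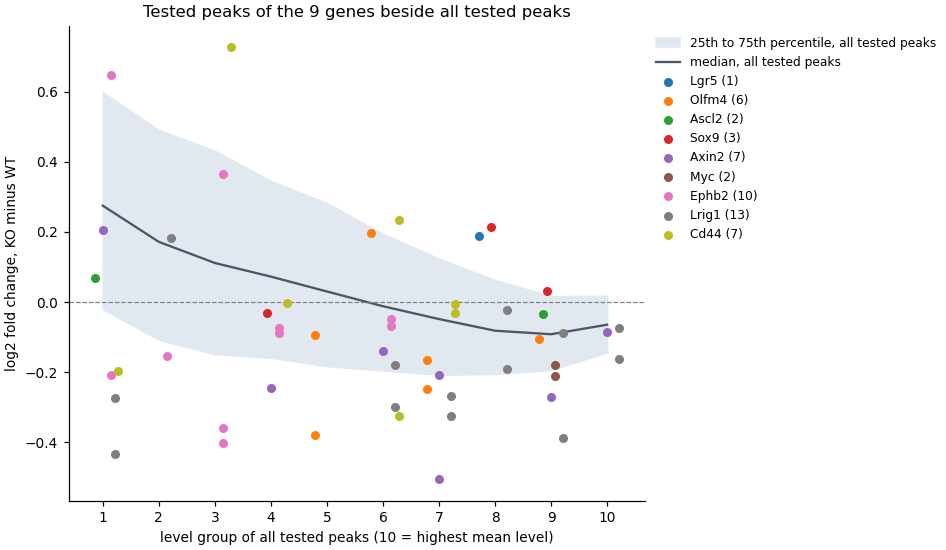
Log2 fold change (KO minus WT) of the 51 tested peaks of the 9 genes, colored by gene, against the level group of each peak (10 groups of equal size by mean level), with the median (line) and the middle range (band) of all 81022 tested peaks. The line falls from 0.27 in group 1 to -0.09 in group 9 and is at -0.06 in group 10. Most points of Axin2, Myc and Lrig1 lie below it, as do most of Olfm4 and Ephb2.

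Among the tested Axin2 peaks, the fitted difference was largest at peak 7. WT1 to WT5 had 8.5, 10.1, 11.7, 10.7 and 10.7 CPM there and KO6 to KO10 had 7.1, 8.2, 7.2, 6.4 and 7.7 CPM. All 5 KO mice were below all 5 WT mice, a separation that 1.21% of tested peaks showed in this direction. Among the 51 tested peaks of the 9 genes, peak 7 alone showed it, and it was named for its low unadjusted p. Peak 7 had a log2 fold change of -0.51 (SE 0.144, 95% interval -0.81 to -0.20, edgeR adjusted p = 0.104). It was between -0.57 and -0.46 when any 1 mouse was left out. Peak 8, the strongest of Axin2 with 35.0% ± 4.5 of its counts in WT and 37.4% ± 5.4 in KO mice, was at -0.09 (SE 0.12, 95% interval -0.34 to 0.16, edgeR adjusted p = 0.770). The value of peak 8 was -0.010 without WT2, -0.17 without KO8, -0.18 with total counts and -0.24 with no filter on low counts. Against the other Axin2 peaks, within 1 fit, peak 8 was at 0.11 (edgeR adjusted p = 0.99997).

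The strongest peak of Lrig1, number 14, held 30.7% ± 3.8 of the counts in WT and 32.4% ± 1.9 in KO mice and was at -0.07 (SE 0.097, 95% interval -0.28 to 0.13, edgeR adjusted p = 0.755). The value of peak 14 was -0.011 without WT2, -0.13 without WT4, -0.16 with total counts and -0.23 with no filter on low counts. Against the other Lrig1 peaks it was at 0.08 (edgeR adjusted p = 0.99997). Peak 8 of Lrig1 had 14.2, 16.9, 18.8, 21.5 and 17.1 CPM in WT1 to WT5 and 9.9, 13.0, 18.8, 12.9 and 13.0 CPM in KO6 to KO10. All KO mice but KO8 were below all WT mice there. Its log2 fold change was -0.39 (SE 0.153, 95% interval -0.71 to -0.07, edgeR adjusted p = 0.217). With 1 mouse left out this value ranged from -0.55 to -0.29, and -0.29 was the value without KO6 (edgeR adjusted p = 0.391). Of the 13 tested Lrig1 peaks, 12 were lower in KO mice.

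The 2 Myc peaks were close in their difference. Peak 1 was at -0.21 (SE 0.118) and peak 2, with 50.4% ± 2.8 of the counts in WT and 51.3% ± 4.9 in KO mice, at -0.18 (SE 0.105, edgeR adjusted p = 0.414). Peak 2 was at -0.10 with loess offsets, -0.28 with total counts and -0.34 with no filter. Both are nearer to 0 than the sum, because the factors of the single-peak fit place the KO libraries higher, as the value of -0.19 for the sum under those factors shows.

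**Figure D4:**
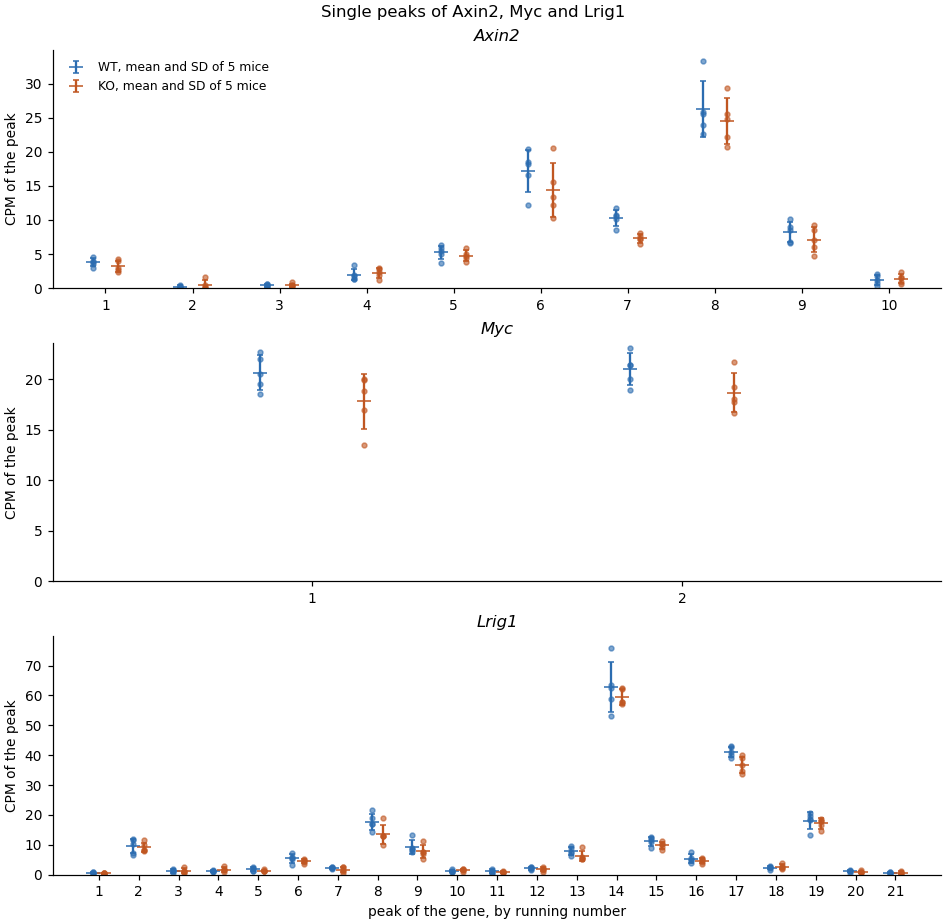
CPM of each peak of Axin2 (10 peaks), Myc (2) and Lrig1 (21) by running number, for single WT mice (blue) and KO mice (orange), with the mean and SD of 5 mice. The genotypes are apart at Axin2 peak 7 and overlap at the strongest peaks, Axin2 peak 8 and Lrig1 peak 14.

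In Cd44, peak 2 was higher in KO mice, at 3.4 ± 1.5 CPM against 2.2 ± 0.83 CPM in WT mice (SD, n = 5). The counts there were few, 8 to 29 in a mouse, and KO6 had the 29. Its log2 fold change was 0.73 (SE 0.328, 95% interval 0.04 to 1.41, edgeR adjusted p = 0.280), and without KO6 it was 0.44 with an adjusted p of 0.578. The strongest Cd44 peak, number 1, was at -0.03 (SE 0.152) and the 5 lower and 2 higher tested peaks of the gene ranged from -0.32 to 0.73. The strongest peaks of the other genes were within 0.19 of 0, with Lgr5 peak 3 at 0.19 (SE 0.128), Olfm4 peak 17 at -0.11 (SE 0.157), Ascl2 peak 6 at -0.03 (SE 0.117), Sox9 peak 3 at 0.03 (SE 0.126) and Ephb2 peak 12 at -0.05 (SE 0.178). These values moved with the filter and with the scaling. With no filter on low counts Lgr5 peak 3 was at 0.020, Olfm4 peak 17 at -0.27, Ascl2 peak 6 at -0.20, Ephb2 peak 12 at -0.21 and Cd44 peak 1 at -0.19, and with total counts they were at 0.093, -0.20, -0.13, -0.14 and -0.12.

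Whether a peak differed from the other peaks of its gene was tested with edgeR's test of differential use, which compares peaks within a gene and needs no scaling between genes. Of 17760 genes with 2 or more tested peaks, 0.0957% passed an adjusted p of 0.05. None of the 8 such genes here passed, all with an adjusted p of 0.99995. Axin2 peak 7 was at -0.31 on the log2 scale against the other Axin2 peaks and Lrig1 peak 8 at -0.23 against the other Lrig1 peaks, both with an edgeR adjusted p of 0.99997. Peaks that were higher departed further, with Cd44 peak 2 at 0.72 (edgeR adjusted p = 0.699) and Ephb2 peak 24, named after its value was seen, at 0.70 (edgeR adjusted p = 0.855). Cd44 peak 2 lies in level group 3 and Ephb2 peak 24 in group 1, where the median log2 fold changes of all tested peaks were 0.11 and 0.27. This contrast does not remove that trend with level. Cd44 peak 2 and Ephb2 peak 24 had an unadjusted p under 0.05 in this contrast. The share of all tested peaks with such a p there is not given here, so this is not read as a result about these genes. No peak of the 9 genes passed after adjustment over all peaks tested.

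Of the other genes of the Wnt pathway, Wnt5a, a ligand of the noncanonical branch, was the only one whose ID could be paired with a symbol. Its 7 peaks summed to 8.7 ± 1.7 CPM in WT and 8.9 ± 1.3 CPM in KO mice (SD, n = 5). Wnt5a differed by 0.02 in log2 fold change (SE 0.16, 95% interval -0.31 to 0.36, edgeR adjusted p = 0.935). The remaining Wnt ligands, receptors, inhibitors and transducers were not analysed here.

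Among 213 tested genes with a known symbol, the 5 whose log2 CPM over the 10 mice was most like the average of the 9 genes were Gm9917 (Pearson r 0.863), Tc2n (0.826), Miga1 (0.782), Gsta3 (0.756) and Tmie (0.742). Gm9917 and Gsta3 rest on 1 peak each. Since the average is itself lower in KO mice, genes chosen to follow it tend to be lower too, and their direction is not a result. The symbols come from a table that the study chose by RNA changes in the same genotypes, and the points share the libraries and their depth, so the correlations are descriptions.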

How the data were processed

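ATAC-seq libraries of sorted IECs of 5 WT and 5 KO mice were compared, grouped by the sample labels. The authors deposited raw counts per peak for 1 peak set common to all mice, with a gene ID per peak and mm10 as build; a normalized signal for each mouse was also deposited and not used. Aligner, peak caller, duplicate handling, transposase offset and the rule that assigned peaks to genes are not given in the sources used here. A gene sum depends on that rule, and counts without molecular identifiers are not independent molecules.

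Counts were tested singly and summed by gene ID with edgeR 4.0.16 (filterByExpr, TMM, glmQLFit, glmQLFTest, diffSpliceDGE) under R 4.3.3, genotype as the only term. Log2 CPM used a prior count of 2. Alternatives were DESeq2 1.42.0, total counts, loess offsets (span 0.3), no filter, at least 10 counts in every mouse, 1 surrogate variable (sva 3.50.0), exact permutation, the strongest peak alone or left out, and each mouse left out. The scaling factors of single peaks and thinning were added after seeing the data. The code was tested on simulated data. Tables used Python 3.11.15, pandas 2.3.3 and scipy 1.17.1.

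Of 170 genes in 14 marker and pathway lists, 1 could be paired with an ID, through the paper's supplement, whose letters were read from page text; the RefSeq table held no Ensembl IDs. The 9 genes and the lists were chosen with earlier results of these data known. Named were all 9 genes, their strongest peaks, peaks at an unadjusted p under 0.05, and the 5 genes most alike, kept to symbols found in RefSeq.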

Additional observations from a re-analysis of the deposited data

Results flagged for a closer look

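In 42 groups of 5 mice examined, a gap between 1 mouse and the others that exceeded 0.71 of the group's range occurred in 2, and chance gives about 1 in 20. KO6 had 46.9 CPM at Axin2, while the other KO mice had between 59.2 and 61.8 CPM. Without KO6 the log2 fold change of Axin2 was -0.20 (edgeR adjusted p = 0.149). KO9 had 44.9 CPM at Ephb2, while the other KO mice had between 37.7 and 39.8 CPM. Without KO9 the log2 fold change of Ephb2 was -0.12 (edgeR adjusted p = 0.421).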

How the results depend on the processing

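No paired analysis was possible because no mouse number occurs in both genotypes. Axin2, Myc, Lrig1, Olfm4 and Ascl2 were lower in KO mice, and Lgr5 higher, under every alternative run for them, with ranges of -0.40 to -0.087 in Axin2, -0.37 to -0.17 in Myc, -0.34 to -0.074 in Lrig1, -0.20 to -0.026 in Olfm4, -0.13 to -0.0059 in Ascl2 and 0.0010 to 0.19 in Lgr5 (0.021 to 0.10 with 1 mouse left out), and no gene of the 9 passed an adjusted p of 0.05 except Lrig1 with DESeq2 (-0.24, adjusted p = 0.0264). The lowest values of Axin2, Myc and Lrig1 are those of sums without the strongest peak, where Ephb2 was at -0.14, and the highest of Axin2 and Lrig1 those of the strongest peak alone. These alternatives were fitted with scaling factors of their own. For Myc the sum left is peak 1 alone, at -0.37 here but at -0.21 in the fit of single peaks. The permutation test could not pass for any gene sum. The sum of Ephb2 was above 0 with loess offsets (0.034) and the factors of single peaks (0.0061). The sum of Cd44 was above 0 with loess offsets (0.093), at least 10 counts in every mouse (0.0015), the factors of single peaks (0.069) and thinning (0.00064). With 1 mouse left out, Sox9 ranged from -0.017 to 0.086 and Cd44 from -0.051 to 0.059. Among strongest peaks, also with 1 mouse left out, Olfm4 peak 17 ranged from -0.22 to 0.0012, Ascl2 peak 6 from -0.092 to 0.019, Sox9 peak 3 from -0.053 to 0.11, Ephb2 peak 12 from -0.14 to 0.013 and Cd44 peak 1 from -0.12 to 0.019. Ascl2 peak 6 was at 0.046 with loess offsets. Sox9 peak 3 was at -0.056 with total counts, -0.13 with no filter and -0.068 with 1 surrogate variable. Cd44 peak 1 was at 0.011 with loess offsets and 0.0097 with 1 surrogate variable. The cause of these changes was not tested. Lgr5 without its strongest peak, and Cd44 peak 2 at 10 or more counts in every mouse, gave no value because they did not pass the filter.

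The number of gene sums past an adjusted p of 0.05 was 1434, and 2177 with DESeq2, 890 with total counts, 305 with loess offsets, 25 with 1 surrogate variable, 2196 with the factors of single peaks and 193 after thinning. With 1 mouse left out it was lowest, 0, when that mouse was KO6, KO9, KO10, WT3 or WT5, and highest, 3311, when it was WT2. For single peaks it was 0, and 562 with DESeq2, 394 with no filter, 859 with at least 10 counts in every mouse, 7 with 1 surrogate variable and from 0 to 1880 with 1 mouse left out. For the use of peaks it was 17, and 5 with at least 10 counts in every mouse and from 3 to 114 with 1 mouse left out. Depth limits Lgr5 most, where 54 counts in WT2, the fewest of any mouse, give a counting error of 13.6%.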
